A study of Mus musculus with 6 samples.

Results

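The 37 genes described here encode the enzymes of cholesterol synthesis and of fatty acid synthesis, elongation and desaturation, together with 6 regulators that set how strongly these enzymes are transcribed. They were chosen by name, from their textbook place in these pathways, and make up 37 of the 53726 features of the RNA-seq table. Earlier results of these data were known at that choice, so the shares of members given below are not those of a blind list. They comprise 7 enzymes of the mevalonate steps, 11 enzymes that carry squalene to cholesterol, 6 enzymes that supply acetyl-CoA and NADPH and build the fatty acid chain, 3 elongases, 4 desaturases and the 6 regulators. RNA-seq had been made from total RNA of Achilles tendon of 4-week-old mice, with 1 library for each of 3 genotypes. Each library came from a single mouse. The Control carried floxed Dicer alleles without Cre (Dicer f/f), the ScxHt sample carried ScxCre/+ KI with intact Dicer (Dicer +/+), and the Dicer cKO sample carried ScxCre/+ KI with Dicer f/f. Dicer is the enzyme that cuts microRNAs out of their precursors. In both ScxCre genotypes, Cre sits in the Scx locus, so that recombination follows the Scx promoter of tendon cells and an allele of Scx itself is lost, which the Control does not share. Cells in the tendon that have not expressed Scx keep their Dicer alleles in the Dicer cKO.

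Cells make cholesterol from acetyl-CoA by way of mevalonate, squalene and lanosterol, and they make fatty acids from the same acetyl-CoA with NADPH as the reductant. When sterols in the endoplasmic reticulum run low, the escort protein SCAP carries the SREBP transcription factors to the Golgi, where they are cut and released to the nucleus, while the INSIG proteins hold SCAP back when sterols are plentiful. SREBP-1c and the glucose-sensing factor ChREBP drive the fatty acid branch above all, and in an adult mouse these fatty acid genes are read most strongly in liver, fat and the sebaceous glands of the skin.

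Reads assigned to features added up to 16218733, 15743740 and 14936241 in the Control, ScxHt and Dicer cKO libraries. Dicer1 itself had 1919, 2025 and 1621 reads in the same order, and its Dicer cKO/Control ratio was 0.877 (0.821 to 0.938), a count that includes transcripts of cells without recombination and of the unfloxed part of the gene. Genes that mark tendon fibroblasts were present in all 3 libraries, and none of the 10 was at 0. All ratios below are read counts divided by DESeq2 size factors of the 2 libraries compared, each followed in parentheses by its 95% exact (Clopper-Pearson) interval, which covers counting error only, takes reads as independent molecules, and leaves out the spread between mice. No genotype had a replicate, so no ratio could be tested across mice and no p-value is given. A gene was analysed where its mean scaled count was above 50, and it was called higher above a ratio of 1.67 and lower below 0.60. In these bulk libraries, fewer cells of a type and less RNA per cell cannot be told apart.

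Levels of the genes within a library are compared per length, in reads scaled to feature length and library total (RPKM). The fatty acid branch held most of the RNA of the set in each library, and a single gene, Scd1, held most of that branch. Scd1, which encodes the desaturase that turns stearate into oleate, lay at 875, 1156 and 1268 RPKM in the Control, ScxHt and Dicer cKO libraries, and ranked 42, 32 and 36 among all features by RPKM. Next came Fasn, the multienzyme that builds palmitate, at 59.1, 74.2 and 116 RPKM, and it ranked 419, 357 and 210. The malic enzyme gene Me1, whose product supplies NADPH, stood at 21.6, 31.0 and 53.1 RPKM and moved from rank 1536 in the Control and 1074 in the ScxHt to 497 in the Dicer cKO library. The sterol enzymes were far lower. The highest of them in the Control was Hmgcs1, the synthase that makes HMG-CoA, at 10.2, 9.94 and 11.8 RPKM. The lowest in the Control were Lss, at 1.22, 1.08 and 0.868 RPKM, and Dhcr7, at 1.13, 0.981 and 1.02 RPKM. In the Dicer cKO library the lowest was Hsd17b7, at 0.864 RPKM. These ranks depend on feature length, since Lss has 10787 exonic bases and Mvd 1859. By reads the lowest sterol enzyme in each library was Mvd, at 48, 60 and 41 reads. The 37 genes together took 6339, 8080 and 9313 counts scaled to the library total (CPM) in the same order, or 0.634%, 0.808% and 0.931% of all reads. The 13 fatty acid enzymes made up 5811, 7500 and 8749 CPM of these sums, the 18 sterol enzymes 269, 290 and 254 CPM and the 6 regulators 259, 290 and 310 CPM. Nearly all of the gap between the summed levels thus lay in the fatty acid branch, while the summed level of the sterol enzymes was lowest in the Dicer cKO library.

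**Figure D1:**
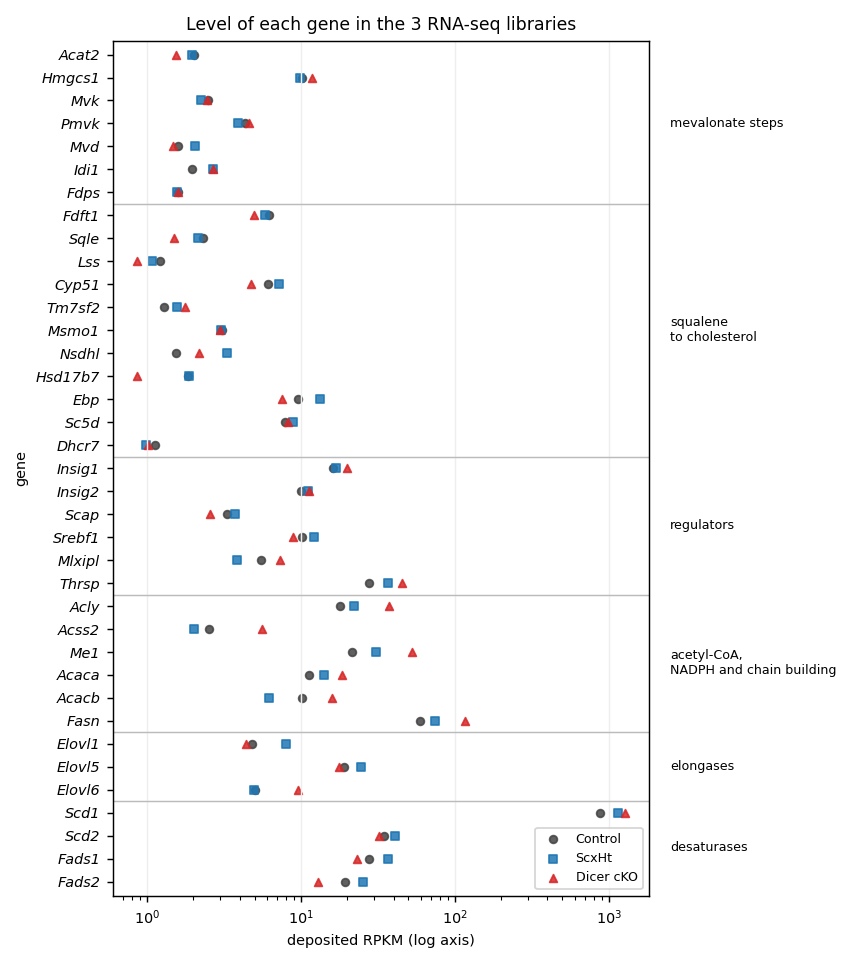
Level of each of the 37 genes in RPKM (log axis) in the Control, ScxHt and Dicer cKO libraries, 1 point per library, with the genes grouped by their step in the pathway. Scd1 lies at 875 to 1268 RPKM, far above Fasn at 59.1 to 116 RPKM, and most sterol enzymes lie below 10.2 RPKM.

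The starts of several of these genes show the sequence the pathway is read from, and 3 are given because they stand for the 3 behaviours described below. Hmgcs1 opens the mevalonate steps and had a Dicer cKO/Control interval that only just held 1 (0.999 to 1.22). Against ScxHt its interval lay above 1 (1.12 to 1.38). For Dicer cKO/Control, Fasn, which builds the fatty acid chain, had an interval above 1, and Hsd17b7, a late sterol enzyme, had one below 1. In the RefSeq promoter windows (GRCm38.p6, 250 bases before to 50 bases after the start), 31 of the 37 genes had at least 1 window, 42 windows in all. The letters searched, on both strands, were TCACNCCAC for the core of a sterol response element, CACGTG for the E-box and CCAAT for the CCAAT box, the site of NF-Y, a known partner of SREBP. The stretches below lie before the start, are written 5′ to 3′ along the strand of the gene, and carry the matches in capitals, where ATTGG is CCAAT on the other strand and CCAATTGG is a pair of overlapping matches.
Fasn, chr11:120824572-120824667, minus strand: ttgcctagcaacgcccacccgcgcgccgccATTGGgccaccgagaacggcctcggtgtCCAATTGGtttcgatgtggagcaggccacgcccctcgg
Hmgcs1, chr13:119690101-119690340, plus strand: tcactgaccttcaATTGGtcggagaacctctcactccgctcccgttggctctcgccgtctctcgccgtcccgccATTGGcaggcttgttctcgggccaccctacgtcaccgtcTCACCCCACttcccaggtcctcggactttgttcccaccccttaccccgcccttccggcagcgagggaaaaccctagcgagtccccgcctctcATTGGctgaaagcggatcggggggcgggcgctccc
Hsd17b7, chr1:169969244-169969400, minus strand: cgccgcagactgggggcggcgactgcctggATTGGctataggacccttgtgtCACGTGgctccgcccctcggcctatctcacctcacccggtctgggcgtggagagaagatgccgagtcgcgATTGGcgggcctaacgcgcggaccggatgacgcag

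CCAAT stood in 27 of the 42 windows (64.3%) and in 26 of the 31 genes, against 37.4% of all 32851 RefSeq windows and 36.8% of the 11268 windows of genes analysed for Dicer cKO/Control. It was present in 14 of the 15 sterol enzyme genes with a window and in 7 of the 10 fatty acid enzyme genes. Its relation to the ratios of the genes was not tested. CACGTG stood in 8 of the 42 windows (19.0%), against 7.15% of all windows and 9.74% of those of the genes analysed, and belonged to Dhcr7, Elovl5, Hsd17b7, Insig1, Mlxipl, Sc5d and Scap. TCACNCCAC was found in 2 windows (4.76%, against 1.24% of all and 1.07% of those of the genes analysed), those of Hmgcs1 and Mlxipl, and a pair of E-boxes 5 bases apart was in none of the windows of any gene. A match of letters is a description of these 300 bases and not a binding site.

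Of the 36 members analysed for Dicer cKO/Control, 5 (13.9%) had a ratio above 1.67, against 3.87% of the 13404 genes analysed, and 1 (2.78%) had a ratio below 0.60, against 4.19%. The whole interval lay above 1 for 13 members (36.1%), against 21.6% of all genes, and below 1 for 12 (33.3%), against 28.5%. Both directions occurred in each branch of the pathway. Fatty acid enzymes held all 5 ratios above 1.67, with 8 intervals above 1, 4 below and a median log2 ratio of 0.58 over the 13 enzymes, whereas the 17 sterol enzymes analysed had 2 intervals above 1, 6 below and a median of -0.10, and all genes had a median of -0.03. Against the ScxHt library, 6 of 37 members (16.2%) were above 1.67, against 7.68% of 13455 genes, and 4 (10.8%) were below 0.60, against 5.68%, while 12 intervals lay above 1 and 12 below (32.4% each, against 24.9% and 30.6% of all genes). The 6 were Acss2, Acacb, Elovl6, Mlxipl, Me1 and Acly, and the 4 were Hsd17b7, Fads2, Elovl1 and Ebp. Both comparisons share the Dicer cKO library. Between the ScxHt library and the Control, 1 of 37 members (2.70%) was above 1.67 and 1 was below 0.60, against 3.03% and 4.71% of 13462 genes, with 14 intervals above 1 (37.8%, against 26.4%) and 4 below (10.8%, against 23.8%).

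**Figure D2:**
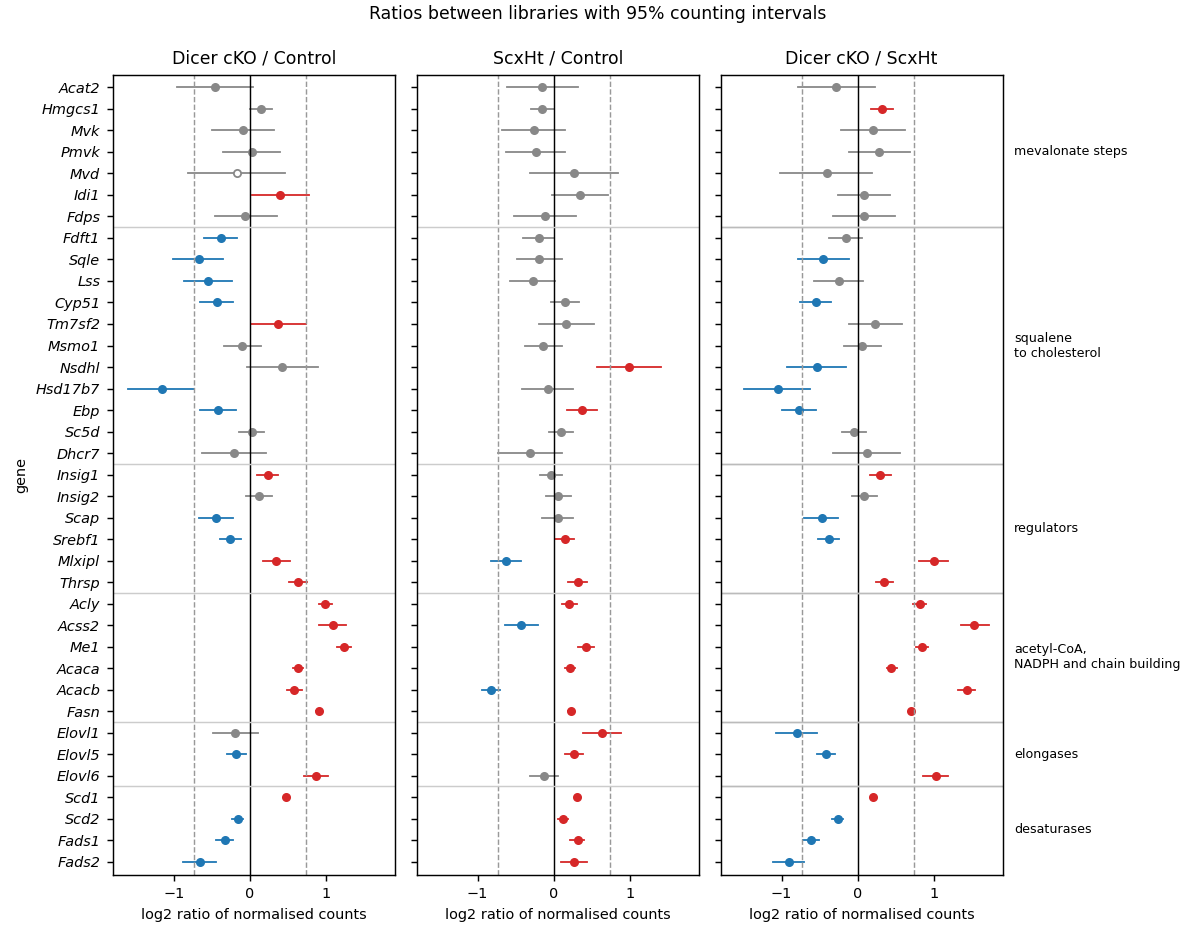
Log2 ratio of each member with its 95% counting interval for the 3 comparisons, red where the interval lies above 0, blue where it lies below, grey where it holds 0, an open circle where the mean scaled count was not above 50, and dashed lines at ratios of 1.67 and 0.60. In Dicer cKO/Control the enzymes that build the chain form a run of red points up to Me1 at 2.35, and the enzymes from squalene to cholesterol are mostly blue, down to Hsd17b7 at 0.448.

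The 6 enzymes that supply acetyl-CoA and NADPH and build the chain were the group with the plainest difference: each had an interval above 1 in the Dicer cKO library against both other libraries. Their median log2 ratio was 0.95 against the Control and 0.83 against ScxHt, with 0.21 between the ScxHt library and the Control, and their summed level was 1144, 1373 and 2195 CPM in the order Control, ScxHt and Dicer cKO. Me1 (chromosome 9, 86581371 to 86695953) had 1351, 1882 and 3056 reads in the Control, ScxHt and Dicer cKO libraries, a Dicer cKO/Control ratio of 2.35 (2.20 to 2.51), the highest of the members. Acss2, which makes acetyl-CoA from acetate (chromosome 2, 155517948 to 155585724), had 418, 325 and 854 reads, and its ratio was 2.12 (1.89 to 2.39) to the Control and 2.90 (2.55 to 3.30) to the ScxHt library. Acly, the ATP citrate lyase that makes acetyl-CoA from citrate (chromosome 11, 100476353 to 100528000), had 1541, 1851 and 2950 reads and a Dicer cKO/Control ratio of 1.99 (1.87 to 2.12). The 3 genes were thus highest in the Dicer cKO library, but in the ScxHt library Me1 and Acly lay above the Control and Acss2 below it, with ScxHt/Control ratios of 1.33 (1.24 to 1.43), 1.15 (1.07 to 1.23) and 0.745 (0.642 to 0.863).

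Fasn (chromosome 11, 120805846 to 120824547) had 10502, 12808 and 18931 reads, and the Dicer cKO library stood at 1.87 (1.83 to 1.92) against the Control and at 1.63 (1.59 to 1.67) against ScxHt. The ScxHt library stood at 1.17 (1.14 to 1.20) against the Control. The acetyl-CoA carboxylases make malonyl-CoA, the building block that Fasn uses. Acaca, the cytosolic form, had 3148, 3799 and 4689 reads and a Dicer cKO/Control ratio of 1.55 (1.48 to 1.62). Acacb, the form tied to mitochondria, where its malonyl-CoA holds back fatty acid oxidation, had 1602, 946 and 2312 reads and a Dicer cKO/Control ratio of 1.50 (1.41 to 1.60). The carboxylases differed in the ScxHt library: Acaca stood at 1.16 (1.10 to 1.21) against the Control and Acacb at 0.566 (0.521 to 0.613), the only member below 0.60 in that comparison. Accordingly, the reads of Acaca per read of Acacb were close in the Control, at 1.97 (1.85 to 2.09), and the Dicer cKO library, at 2.03 (1.93 to 2.13), and stood at 4.02 (3.74 to 4.32) in ScxHt. Scaling by total counts moved the log2 ratio of Acacb from -0.82 to -0.72 and put it on the other side of the limit. Acacb is abundant in muscle, and the 12 markers of fast skeletal muscle stood at 13358, 10920 and 26040 CPM in the Control, ScxHt and Dicer cKO libraries, in the same order as Acacb. Within that list the markers did not move together, with Myh4 at 8125, 39836 and 49811 reads and Acta1 at 85448, 51113 and 130878 reads. Their part in the values of Acacb was not tested.

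Elongases lengthen fatty acids by 2 carbons at a time and each prefers other chains. Elovl6, which extends palmitate, the product of Fasn, had 529, 504 and 928 reads in the Control, ScxHt and Dicer cKO libraries, and its ratio was 1.82 (1.64 to 2.03) to the Control and 2.03 (1.82 to 2.27) to the ScxHt library. Elovl5, which extends polyunsaturated chains, had 1091, 1371 and 930 reads and ratios of 0.885 (0.810 to 0.967) and 0.748 (0.687 to 0.813). Elovl1, which extends saturated chains to very long ones, had 213, 344 and 179 reads, at 0.873 (0.711 to 1.07) to the Control and 0.573 (0.476 to 0.689) to the ScxHt library. So only the elongase that acts on the product of Fasn was highest in the Dicer cKO library, and the other 2 were highest in the ScxHt library. Reads of Elovl6 per read of Elovl5 stood at 0.485 (0.436 to 0.538) for the Control, 0.368 (0.331 to 0.407) for ScxHt and 0.998 (0.910 to 1.09) for the Dicer cKO.

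The desaturases also divided for Dicer cKO/Control, between the enzyme of monounsaturated fat in adipose tissue and the others. Scd1 (chromosome 19, 44394455 to 44407879) had 68739, 88133 and 91717 reads and a Dicer cKO/Control ratio of 1.39 (1.37 to 1.40). Unlike Elovl6, Scd1 was also above the Control in the ScxHt library, at 1.23 (1.22 to 1.24), and its Dicer cKO/ScxHt ratio was 1.15 (1.14 to 1.16). Scd2, its neighbour on the chromosome and the main form in brain, had 3075, 3499 and 2646 reads and a Dicer cKO/Control ratio of 0.894 (0.848 to 0.942). Reads of Scd1 per read of Scd2 were 22.4 (21.6 to 23.2), 25.2 (24.4 to 26.1) and 34.7 (33.3 to 36.0) in the Control, ScxHt and Dicer cKO libraries. Both belong to a family of close copies, and how reads that fit several copies were counted is not given in the sources used here. Fads2 and Fads1 set double bonds on the way to arachidonic acid and its relatives, and lie side by side on chromosome 19. Fads2 had 479, 600 and 291 reads, at 0.631 (0.543 to 0.731) in the Dicer cKO against the Control and 0.534 (0.463 to 0.616) against ScxHt. Fads1 had 1559, 2015 and 1197 reads, at 0.797 (0.739 to 0.860) and 0.655 (0.609 to 0.704). Both were highest in the ScxHt library, with ScxHt/Control ratios of 1.20 (1.06 to 1.36) and 1.24 (1.16 to 1.32), and lowest in the Dicer cKO library. There were 21.9 (20.0 to 24.1) reads of Fasn per read of Fads2 for the Control, 21.3 (19.7 to 23.2) for ScxHt and 65.1 (57.9 to 73.3) for the Dicer cKO, so that the enzyme of new saturated chains and that of polyunsaturated chains parted within the same RNA.

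**Figure D3:**
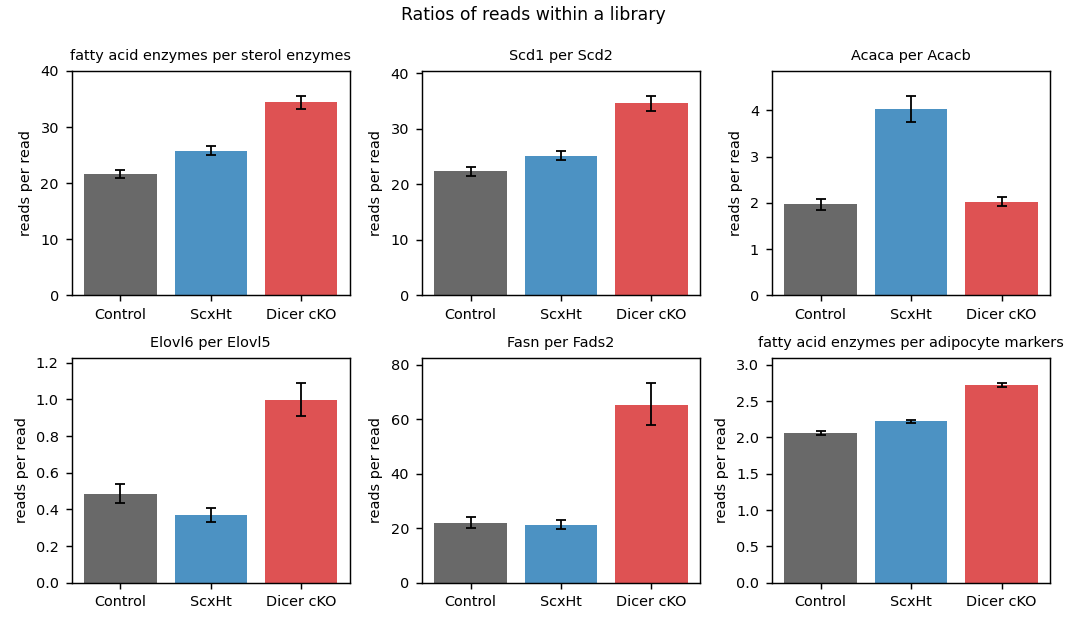
Reads of a gene or list per read of another in the same library, with 95% exact intervals, for 6 pairs, so that neither library size nor scaling enters. The bars of the Control and ScxHt libraries lie near each other for Fasn per Fads2, at 21.9 and 21.3, and the Dicer cKO bar stands at 65.1.

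Among the 6 regulators, 3 had an interval above 1 for Dicer cKO/Control, against 21.6% of all genes, and 2 had one below, against 28.5%. Whether so small a group differs from all genes was not tested. The genes of the sterol-sensing arm lay on both sides. Srebf1, which encodes SREBP-1, had 931, 1075 and 749 reads and a Dicer cKO/Control ratio of 0.835 (0.758 to 0.921), and Scap, its escort, had 402, 435 and 284 reads and a ratio of 0.734 (0.628 to 0.856). Both were thus lower in the Dicer cKO than in either other library. The retention proteins did not follow them, since Insig1 had 811, 822 and 915 reads at 1.17 (1.06 to 1.29) and Insig2 had 564, 613 and 589 reads at 1.08 (0.965 to 1.22). Mlxipl, which encodes ChREBP, had 498, 336 and 609 reads, at 1.27 (1.13 to 1.43) in the Dicer cKO and 0.646 (0.561 to 0.744) in the ScxHt library against the Control, and the interval of Dicer cKO/ScxHt ran from 1.75 to 2.29. Thrsp (Spot 14), a protein of lipid-making cells that is read under ChREBP and thyroid hormone, had 991, 1280 and 1478 reads and stood at 1.55 (1.43 to 1.68) in the Dicer cKO against the Control. Srebf1 and Mlxipl therefore took opposite sides of 1 in each comparison, and the RNA level does not report the amount of cleaved SREBP-1 in the nucleus. Of the exonic bases of Scap, 13.2% are shared with a gene of the opposite strand, and the strand setting of the counting is not given in the sources used here.

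The mevalonate steps turn acetyl-CoA into farnesyl diphosphate. Of the 7 enzymes, 6 were analysed for Dicer cKO/Control. None of the 6 passed 1.67 or 0.60, limits that only 3.87% and 4.19% of all genes passed. Their median log2 ratio was -0.02, beside -0.03 for all genes. Hmgcs1 (chromosome 13, 119690379 to 119708260), the most read of them, had 765, 720 and 813 reads and a ratio of 1.10 (0.999 to 1.22), beside 1.24 (1.12 to 1.38) for Dicer cKO/ScxHt and 0.901 (0.813 to 0.999) for ScxHt/Control. Idi1, an isomerase, had 112, 148 and 142 reads at 1.32 (1.02 to 1.70), the only interval of the group above 1. The kinases Mvk and Pmvk had 108, 94 and 98 reads and 120, 106 and 117 reads, with ratios of 0.942 (0.709 to 1.25) and 1.01 (0.778 to 1.32). Acat2, which joins acetyl-CoA units, had 84, 79 and 59 reads at 0.729 (0.514 to 1.03), and Mvd, the decarboxylase, had 48, 60 and 41 reads and was under the count limit in this comparison. Fdps, the farnesyl diphosphate synthase, had 108, 104 and 100 reads at 0.961 (0.725 to 1.27), and 26.7% of its exonic bases are shared with another gene on the same strand. At about 100 reads these intervals are wide, so small differences were not detectable at this depth.

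The enzymes from squalene to cholesterol were more often below than above the Control in the Dicer cKO library. Of the 11, 6 (54.5%) had an interval below 1, against 28.5% of all genes. An interval above 1 was held by 1 (9.09%), against 21.6%, and 4 intervals held 1. Their median log2 ratio was -0.38. Hsd17b7, a sterol reductase that removes a ketone on the way to zymosterol (chromosome 1, 169949535 to 169969241), had 153, 151 and 66 reads in the Control, ScxHt and Dicer cKO libraries, and its ratio was 0.448 (0.330 to 0.602) to the Control and 0.482 (0.355 to 0.647) to the ScxHt library. The Control and ScxHt counts were nearly the same, at 0.945 (0.750 to 1.19). Sqle, the squalene epoxidase that oxidises squalene in a rate-limiting step (chromosome 15, 59315077 to 59331192), had 207, 189 and 125 reads, at 0.627 (0.498 to 0.787) for Dicer cKO/Control. Lss, which closes the rings of lanosterol, followed with 213, 184 and 140 reads at 0.683 (0.547 to 0.849), and Cyp51, the lanosterol demethylase, with 437, 505 and 312 reads at 0.741 (0.639 to 0.859). Fdft1, the squalene synthase at the head of this branch, had 427, 388 and 315 reads at 0.766 (0.660 to 0.888), although 18.3% of its exonic bases lie opposite Ctsb, which had 4174, 5070 and 3469 reads. Sqle, Lss, Cyp51, Fdft1, Ebp and Hsd17b7, the 6 with Dicer cKO/Control intervals below 1, include the steps from squalene synthesis to lanosterol in sequence. This run was not seen for Dicer cKO/ScxHt. There, the intervals of Fdft1, at 0.895, and Lss, at 0.839, held 1, and that of Sqle, at 0.729, lay below it.

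Ebp, the last of these 6, is the sterol isomerase (chromosome X, 8185329 to 8193512). It had 361, 488 and 260 reads, and its Dicer cKO/Control ratio of 0.748 (0.635 to 0.880) stood beside a ScxHt/Control ratio of 1.29 (1.13 to 1.49) and a Dicer cKO/ScxHt ratio of 0.587 (0.503 to 0.684). The other 5 enzymes had intervals that held 1 or, for Tm7sf2, lay above it in Dicer cKO/Control. Nsdhl, which acts in the removal of methyl groups beside Hsd17b7, had 72, 149 and 93 reads and was the only member above 1.67 for ScxHt/Control, at 1.98 (1.49 to 2.66), with an interval that reaches below the limit, and its Dicer cKO/Control ratio was 1.34 (0.975 to 1.85). Tm7sf2, a reductase, had 118, 138 and 147 reads at 1.29 (1.01 to 1.66) for Dicer cKO/Control, and 12.1% of its exonic bases are shared with Vps51 on the same strand. The methylsterol oxidase Msmo1, the desaturase Sc5d and the reductase Dhcr7 had Dicer cKO/Control ratios of 0.931 (0.788 to 1.10), 1.01 (0.903 to 1.13) and 0.864 (0.645 to 1.15). Sc5d was the most read of the 3, with 619, 686 and 603 reads, Msmo1 had 308, 292 and 276, and Dhcr7 had 107, 90 and 89. For Dicer cKO/ScxHt, 5 of the 11 (45.5%) had an interval below 1, against 30.6% of all genes, and none above. Their median log2 ratio was -0.25, and the medians of the interval bounds were -0.58 and 0.06.

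The 2 branches were also set against each other within each library, where neither library size nor scaling enters. Reads of the 13 fatty acid enzymes per read of the 18 sterol enzymes were fewest in the Control, at 21.6 (20.9 to 22.3), then ScxHt, at 25.8 (25.1 to 26.6), and most in the Dicer cKO, at 34.4 (33.3 to 35.6). Adipocytes are the cells in such a sample in which the fatty acid enzymes are known to be abundant. The 12 adipocyte markers, none of them at 0, summed to 2817, 3379 and 3212 CPM. Car3 alone held 16440 of 45687, 18175 of 53191 and 16930 of 47969 of their reads, so the sum leans on this gene. Fatty acid enzyme reads per adipocyte marker read were 2.06 (2.04 to 2.09), 2.22 (2.20 to 2.24) and 2.72 (2.70 to 2.75), and for Fasn alone 0.230 (0.225 to 0.235), 0.241 (0.236 to 0.245) and 0.395 (0.388 to 0.401). Set against Adipoq alone, a marker chosen after its values were seen, Fasn gave 5.95 (5.65 to 6.26), 5.24 (5.01 to 5.47) and 8.96 (8.56 to 9.37) reads per read. Scd1 carried the sum, with 91717 of its 130680 reads in the Dicer cKO library, and Fads1, Fads2, Scd2, Elovl5 and Elovl1 had Dicer cKO/Control ratios of 0.631 to 0.894, so the sum does not stand for each enzyme. The markers themselves were mixed: 7 of 12 had an interval above 1 for Dicer cKO/Control and 3 below, from Lep, the leptin gene, with 747, 782 and 306 reads at 0.425 (0.371 to 0.487), to Retn, the resistin gene, with 248, 293 and 387 reads at 1.62 (1.38 to 1.91).

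**Figure D4:**
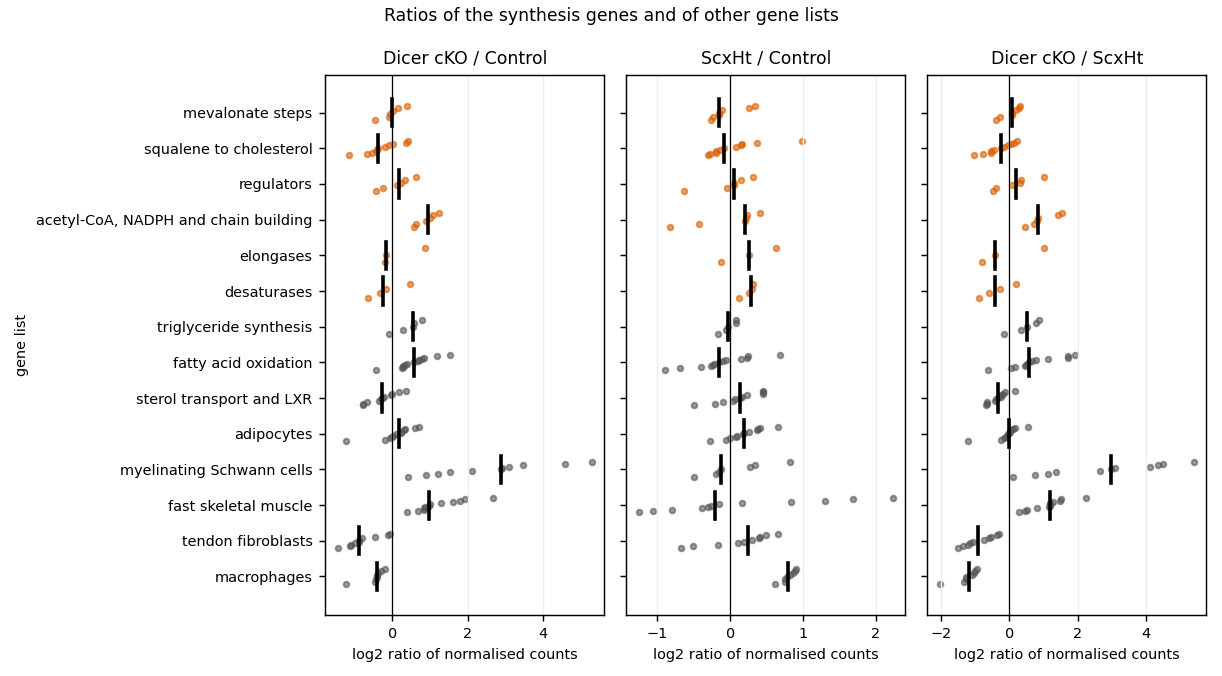
Log2 ratios for each of the 3 comparisons of the members (orange) and of the other gene lists (grey), 1 point per gene analysed, with a black bar at each median. For Dicer cKO/Control the medians stand at 0.95 for chain building, 0.58 for fatty acid oxidation, -0.29 for sterol transport and -0.38 for squalene to cholesterol.

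Other genes of lipid handling were read beside the members, and their counts stand against 21.6% of all genes with an interval above 1 and 28.5% below 1 for Dicer cKO/Control. In triglyceride synthesis, 4 of the 5 genes analysed (80.0%) had an interval above 1, with a median log2 ratio of 0.56. Gpam, which starts glycerolipid synthesis, had 854, 853 and 1420 reads at 1.73 (1.58 to 1.88). The genes of the last step, Dgat1 and Dgat2, parted. Dgat1 had 193, 214 and 175 reads at 0.942 (0.763 to 1.16), and Dgat2 had 702, 653 and 1010 reads at 1.49 (1.36 to 1.65). In fatty acid oxidation, 12 of 13 intervals (92.3%) lay above 1, with a median of 0.58. The highest was Pdk4, the kinase that turns muscle and fat from glucose to fatty acids, with 3028, 2834 and 8522 reads at 2.92 (2.80 to 3.05). The exception was Ehhadh, a peroxisomal enzyme, with 129, 158 and 92 reads at 0.741 (0.560 to 0.975). In sterol uptake and transport, 7 of 11 intervals (63.6%) lay below 1 and 2 (18.2%) above, with a median of -0.29. Stard4, a carrier of cholesterol in the cytosol, had 464, 343 and 260 reads at 0.582 (0.498 to 0.679). Lrp1, a receptor for lipoproteins and other ligands that fibroblasts express strongly, had 39419, 42480 and 23802 reads at 0.627 (0.617 to 0.637). Nr1h3, which encodes the sterol sensor LXR alpha, had 187, 228 and 231 reads at 1.28 (1.05 to 1.56). In the last list, other enzymes of elongation and fatty acid activation, 3 of 10 intervals lay above 1 and 2 below, shares near those of all genes. In it, Acsl1, which activates fatty acids for storage and oxidation, had 5059, 5747 and 7722 reads at 1.58 (1.53 to 1.64).

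Markers of other cells differed strongly between the libraries and move with some of these values. For Dicer cKO/Control, 12 of 12 markers of fast skeletal muscle had an interval above 1 (median log2 ratio 0.98), as had 11 of 11 analysed markers of myelinating Schwann cells (2.90) and 5 of 5 of erythroid cells (1.18), while 10 of 10 tendon fibroblast markers (-0.88) and 6 of 8 macrophage markers (-0.42) had an interval below 1. Summed levels in the Control, ScxHt and Dicer cKO libraries were 267, 341 and 847 CPM for the 16 Schwann cell markers, of which Fa2h was at 0 in the Control, 190, 195 and 462 CPM for the erythroid, 136249, 119791 and 78300 CPM for the tendon and 248, 466 and 195 CPM for the macrophage markers. Myelinating Schwann cells are known for strong sterol synthesis, and the sterol enzymes stood at 1.01 (0.967 to 1.05), 0.852 (0.819 to 0.887) and 0.300 (0.289 to 0.311) reads per read of these markers. In the ScxHt library, 8 of 8 macrophage markers had an interval above 1 against the Control. So had 14 of the 37 members (37.8%, against 26.4% of all genes), of both branches. The part of muscle, nerve, blood, tendon cells and macrophages in the members' ratios was not tested.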

How the data were processed

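RNA-seq of 3 Achilles tendon libraries was used, and the 3 small RNA libraries of the same samples were not used here. The authors sequenced paired ends, aligned trimmed reads to GRCm38 (mm10) with TopHat and Bowtie2, and obtained the deposited raw counts per gene with HTSeq; versions, the annotation release and the strand setting are not given in the sources used here. The deposited RPKM values are these counts scaled by the authors by feature length and library total. They served only for levels between genes and as an alternative.

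Of 54189 features, 463 lines that repeated an earlier name and counts were dropped, which left 53726. Counts were divided by DESeq2 1.42.0 size factors (R 4.3.3) of the 2 libraries compared, and genes with a mean above 50 were analysed. Scripts in Python 3.11.15 (scipy 1.17.1, pandas 2.3.3, numpy 2.4.6, matplotlib 3.10.9 for the plots), tested on simulated data, gave the ratios with 95% exact intervals, the sums and the motif matches. Alternatives were edgeR 4.0.16 TMM, total counts with and without the most abundant features, size factors over all 3 libraries, other minimums, limits and interval rules, a pseudocount of 1 and RPKM. Positions and exons came from GENCODE on GRCm38, and promoter windows from RefSeq (GRCm38.p6). The authors' own fold changes were not used.

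All 37 members are named, and of each other list at most 4 genes: the highest and lowest Dicer cKO/Control ratio and the 2 most read in the Control. Outside this rule, and chosen after their values were seen, are Adipoq, Cidea, Dgat2, Dicer1, the markers at 0 (Fa2h, Ucp1, Elovl3, Krt5) and the genes that overlap a member. The members and the lists were chosen with earlier results of these data known.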

Additional observations from a re-analysis of the deposited data

How the results depend on the processing

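No replicate could be left out and no paired analysis was possible because each genotype had 1 library. No value changed sign past its limit under the alternatives run. Of the 5 members above 1.67 for Dicer cKO/Control, 2 remained above a limit of 2, and 13 were counted where the interval had only to lie above 1. The 1 below 0.60 became 0 with a minimum mean of 200 or where the whole interval had to pass the limit, and 12 where it had only to lie below 1. For ScxHt/Control, the 1 above 1.67 became 0 with a minimum of 200, a limit of 2 or the whole interval past the limit, and 14 with intervals above 1. The 1 below 0.60 became 0 with total counts, RPKM, a limit of 0.5 or the whole interval, and 4 with intervals below 1. For Dicer cKO/ScxHt, the 6 above 1.67 became 3 with a limit of 2 and 12 with intervals above 1, and the 4 below 0.60 became 1 with a limit of 0.5, 0 with the whole interval and 12 with intervals below 1. Total counts and RPKM moved the median log2 ratio of the fatty acid enzymes from 0.22 to 0.33 for ScxHt/Control and from 0.44 to 0.38 for Dicer cKO/ScxHt, since total counts shift the median of all genes by 0.11 for ScxHt/Control and by -0.06 for Dicer cKO/ScxHt. Single-gene values were recomputed only under the other scalings of the counts and the pseudocount. Of these, 536 stayed within the counting interval and 19 moved beyond it. Sterol enzymes with about 100 reads are limited by depth.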

Other observations

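Brown adipocyte and sebaceous or keratinocyte markers were also read, since both cell types make lipid. Ucp1 and Elovl3 were at 0 in all 3 libraries, as was Krt5, where 0 reads allow up to 3 by counting error. The brown adipocyte markers summed to 50.4, 35.9 and 90.5 CPM in the Control, ScxHt and Dicer cKO libraries, a sum carried by Ppargc1a, which muscle also expresses, with 540, 347 and 1160 reads. Dio2 had 260, 212 and 178 reads, and Cidea had 7, 5 and 3. The sebaceous and keratinocyte markers summed to 7.52, 14.5 and 13.1 CPM. Scd3, the sebaceous member of the Scd family and a close copy of Scd1, had 111, 209 and 183 reads, and against the Control its ratio was 1.71 (1.35 to 2.19) in the Dicer cKO and 1.80 (1.43 to 2.29) in the ScxHt library. Reads shared with Scd1 could not be separated here.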
